A study of Mus musculus with 56 samples.

Results

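The healthy livers of this mouse liver tumour study come from C57BL/6 animals, and their titles carry codes of 2 kinds, AL15 and PM5. The account below compares the 3 AL15 livers (AL1558, AL1559 and AL1560, here replicates 1 to 3) with the 3 PM5 livers (PM508, PM509 and PM510, here replicates 1 to 3). These are 6 of the 56 samples of the series, and the comparison covers the 12216 of 24034 genes that had at least 1 TPM in at least 3 of the 6 libraries. TPM is a level per gene length, scaled so that every library adds up to the same total. By the whole reads that the steps of the TPM values give back, the AL15 libraries held 49.8, 48.8 and 57.6 gene reads and the PM5 libraries 40.7, 45.2 and 45.0, each in units of 1000000 reads. All 6 samples are labelled healthy liver with no treatment, total RNA made into libraries with a TruSeq kit, and all carry the hydrodynamic tail-vein injection label that the tumours carry too. In that method a large volume injected quickly into the tail vein drives plasmid DNA into hepatocytes, and the labels do not say whether the healthy livers were injected or with what. They give no sex, age, litter, date or batch, and they do not say what AL15 and PM5 stand for. Everything that sets the 2 code series apart, in the animals or in the handling of their RNA, therefore cannot be told apart, and p-values measure the spread between these samples, which may be technical. The 12 tumours used beside them (6 labelled luc and 6 lucOS, all MYC and nicd, with no sex in the title) came from codes AL51 and AL54.

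Liver is mostly hepatocytes, which secrete plasma proteins, make bile acids and clear foreign compounds. Its blood channels, the sinusoids, are lined by endothelial cells and hold the resident macrophages called Kupffer cells. Many hepatocyte genes are also set by sex through the rhythm of growth hormone release, by feeding through the fatty acid sensor PPARA, and by the time of day through the circadian clock. Such genes are the ones on which livers called healthy can differ. Albumin (Alb) was the most abundant of the hepatocyte markers in all 6 livers, with 115532, 103062 and 98910.5 TPM in AL15 and 72156, 68882 and 73165 TPM in PM5. Markers of neutrophils did not pass the level filter, and 11 of 17 pancreas markers were listed at 0 in every library.

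Between the 2 code series 4210 of 12216 genes differed at an adjusted p under 0.05 (34.5%), by limma on log2(TPM + 1) with Benjamini-Hochberg adjustment over all genes. Of these, 1755 were higher in PM5 (14.4% of genes tested) and 2455 were lower (20.1%). Those 2 shares are the background for the counts of this fit in each gene group below. Group counts close to these shares are given as description only, since genes at large differed as often. Differences are on the log2(TPM + 1) scale, which understates the change of low genes. Most were small: 82 of the higher and 195 of the lower genes reached 1 log2 unit. On recovered whole reads, analysed with limma voom, the split turned, with 3041 genes higher and 1696 lower, around a median over genes of 0.108, against -0.029 in TPM. After quantile normalization 2290 were higher and 2221 lower. A fit that takes its spread from all 26 bulk libraries, tumours included, called 1788 of the 12216 genes, 752 higher and 1036 lower. Gene group counts given below for that fit are to be read against these lower numbers. Without AL15 replicate 3 the count was 2121, without AL15 replicate 2 it was 2552 and without PM5 replicate 2 it was 2588. Higher and lower genes were 1110 and 1978, 1127 and 1425, and 909 and 1212 without AL15 replicates 1, 2 and 3. They were 1597 and 2471, 985 and 1603, and 1724 and 2226 without PM5 replicates 1, 2 and 3. Gene group counts without 1 library are to be read against these totals of the same fit. The Pearson correlation over genes ran from 0.991 to 0.994 between AL15 libraries and from 0.978 to 0.991 between PM5 libraries. Between libraries of different series it ran from 0.959 to 0.979, which overlaps the PM5 range. PM5 replicates 1 and 3 correlated at 0.978, and AL15 replicate 3 with PM5 replicate 3 at 0.9788. A comparison of code series within the tumours, AL54 minus AL51, called 0 of 15158 genes in limma (0%), with 907 genes, or 5.98%, at an unadjusted p under 0.05. None of its scaling alternatives called a gene either. The spread relative to the mean can be far larger in tumours. For Alb, as an example, it was 1277 ± 1136 TPM in luc tumours and 105835 ± 8651 TPM in AL15 (SD). The tumour fit also carried a term for the construct (luc or lucOS). Its 0 calls are therefore not a like-for-like contrast with the 34.5%.

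The differences followed gene length. Across 12204 genes whose length could be read from the steps of the TPM values, length and the PM5 minus AL15 difference had a Spearman correlation of -0.398, given as a description since genes are not independent. In the shortest of 10 equal groups of genes, with a median of 520 bases, 446 genes were higher in PM5 and 91 lower. In the longest group, with a median of 7414 bases, 40 were higher and 520 lower. For each library against the mean of the 6, the correlations were 0.307 to 0.365 in the AL15 libraries and -0.328 to -0.307 in the PM5 libraries. That mean holds both series, so these values largely restate the series difference and are not 6 separate sightings. Between the tumour codes the correlation with length was close to nil, at -0.039. With the trend on length removed, 1508 genes were higher (12.4%) and 1781 lower (14.6%). Of the 4210 genes called before, 2491 were called again, 2489 of them in the same direction. Both fits use the same 6 libraries, so like direction is no separate support. Gene groups below are given with both counts, and what part of a difference belongs to length was not tested.

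**Figure D1:**
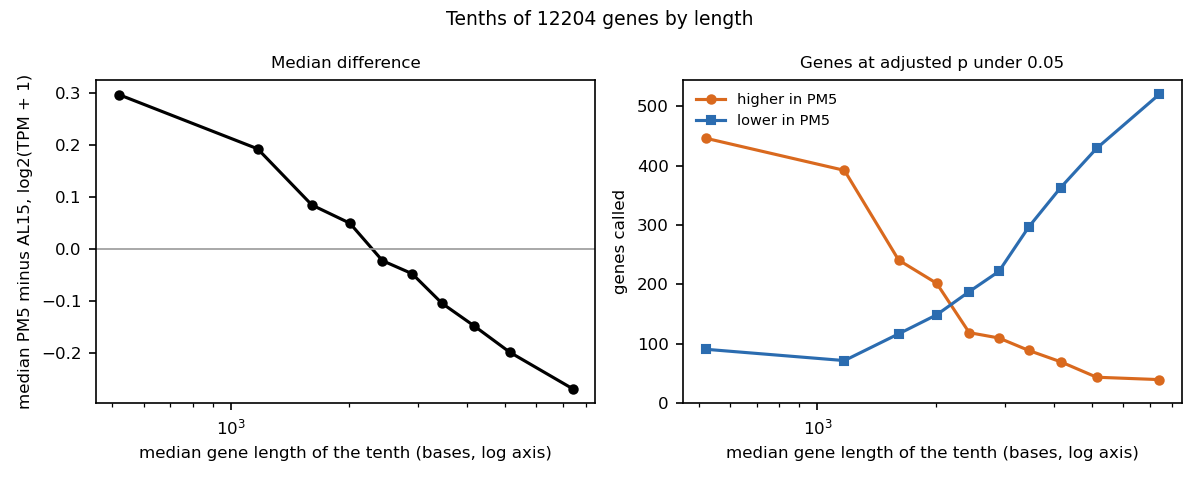
The 12204 genes with a length in 10 equal groups, ordered from short to long (log axis, bases). The left panel shows the median difference, PM5 minus AL15 in log2(TPM + 1), which falls from 0.296 to -0.269, and the right panel shows how many genes passed an adjusted p of 0.05 in each direction.

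Sex-biased genes were among the largest differences. The sulphotransferases that act on steroids and bile acids were low in PM5: Sult2a1 had 49.4, 46.1 and 11.4 TPM in AL15 and 0.935, 3.80 and 0.786 TPM in PM5, a log2 difference of -3.60 ± 0.64 (SE), adjusted p = 0.00903. AL15 replicate 3 was the low one of its series for this gene. The rule that named the largest rises and falls took only genes whose series do not overlap. Of all 12216 genes tested, 6332 (51.8%) showed no overlap. Sult2a2 differed by -4.12 (adjusted p = 0.011), Sult2a4 by -2.46 (adjusted p = 0.00951) and Sult2a6 by -2.43 (adjusted p = 0.0121). These copies are near-identical, so reads can be split among them, and Sult2a5, at -2.23 (adjusted p = 0.0202), lost its call in 4 of the 6 fits that left out 1 library. On recovered reads Sult2a1 and Sult2a2 kept their direction at adjusted p = 0.056 and 0.0557.

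Counted over the list, the female-biased genes leaned to AL15. Of 25 tested, 9 were lower in PM5 and 0 were higher, with a median of -1.03 against -0.029 over all genes, and the count was again 9 with the length trend removed. Cyp3a16, a cytochrome P450 of young and female liver, had 14.1, 28.9 and 8.75 TPM in AL15 and 2.38, 1.92 and 1.48 TPM in PM5, with -2.50 ± 0.39 (SE), adjusted p = 0.00641. Rdh9, a retinol dehydrogenase, had 150.3, 190.1 and 168 TPM in AL15 and 46.3, 76.5 and 59.3 TPM in PM5, with -1.49 ± 0.19 (SE), adjusted p = 0.00385. Fmo2 stood at -1.45 (adjusted p = 0.00347) and Fmo1 at -0.61 (adjusted p = 0.0045). Slc16a5, a monocarboxylate carrier, stood at -1.75 (adjusted p = 0.0155), and its adjusted p lay between 0.051 and 0.058 without AL15 replicate 1, AL15 replicate 3 or PM5 replicate 2. Cyp2b10, an enzyme induced by foreign compounds, had 156, 65.4 and 116 TPM in AL15 and 36.7, 61.98 and 120.3 TPM in PM5, so its groups overlapped (adjusted p = 0.303).

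Male-biased genes leaned to PM5. Of 19 tested, 6 were higher in PM5 and 0 lower, with a median of 0.64, and the count stayed at 6 with the length trend removed. Mup21, one of the major urinary proteins that carry pheromones, had 20.7, 21.9 and 20.4 TPM in AL15 and 121, 93.8 and 105 TPM in PM5, 5.07 times higher in PM5 on the means, with 2.28 ± 0.10 (SE), adjusted p = 0.00161. Its level varied little within either series. Mup20, also called darcin, had 113, 155 and 191 TPM in AL15 and 358, 849 and 584 TPM in PM5, with 1.90 ± 0.34 (SE), adjusted p = 0.00902. Cyp7b1, which hydroxylates oxysterols on the acidic route of bile acid synthesis, had 18.1, 28.4 and 28.3 TPM in AL15 and 47.9, 119.9 and 109.9 TPM in PM5, with 1.77 ± 0.37 (SE), adjusted p = 0.0148. Ugt2b38, a glucuronosyltransferase, was higher by a smaller step, at 0.87 (adjusted p = 0.0049). Over the whole Mup family 3 of 15 tested were higher and 0 lower, 2 with the length trend removed and 7 with the spread of all 26 libraries. The third, Mup6, lost its call without AL15 replicate 1 (adjusted p = 0.0659), without AL15 replicate 3 (0.0698) and with the length trend removed (0.115). Members of this family are near copies of each other, so their single values are uncertain.

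Xist was high and 4 Y-linked genes were listed at 0 in both series. Xist, the RNA that silences one X in female cells, had 52.8, 56.02 and 50.8 TPM in AL15 and 99.2, 104 and 84.04 TPM in PM5, which is 1.80 times higher in PM5, with 0.83 ± 0.09 (SE), adjusted p = 0.00285. Its transcript is long, and with the length trend removed the difference grew to 1.22 (adjusted p = 0.00263). The Y-linked Ddx3y was listed at 0 in all 6 libraries, as were the other 3 Y-linked genes of the list. All 6 libraries were thus alike in holding Xist RNA and none from these Y-linked genes.

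PM5 replicate 1 stood apart from its 2 fellows on some of these genes. Without it, 17 of the 25 female-biased genes were lower in PM5 in place of 9, and 8 of the male-biased genes were higher in place of 6. In the Mup family 10 genes were higher without it in place of 3. The plot of sex-biased genes by library shows single cases: for Cux2 the 3 AL15 livers held 23.1, 25.9 and 27.4 TPM and PM5 replicate 1 held 24.2 TPM, against 2.82 and 2.17 TPM in the other PM5 livers. Cux2, a transcription factor of female liver, was named after its values were seen.

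**Figure D2:**
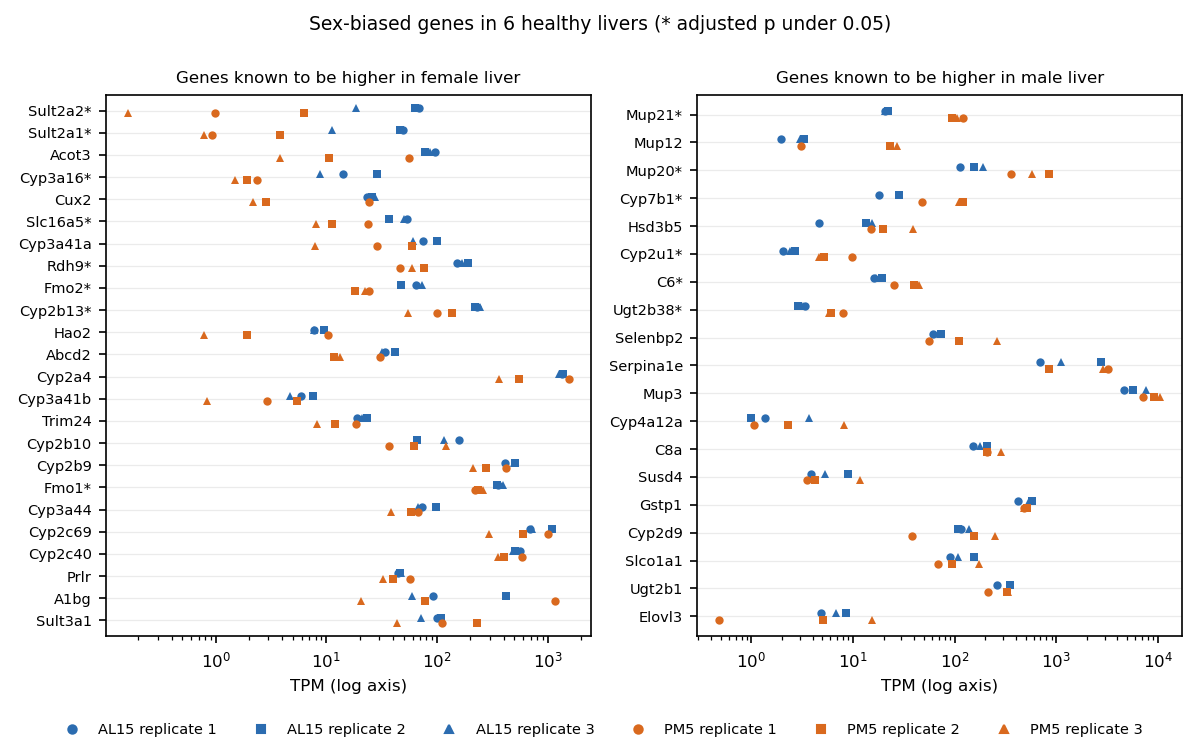
TPM (log axis) of sex-biased genes in the 6 healthy livers, AL15 in blue and PM5 in orange, with 1 symbol per replicate and an asterisk on genes at adjusted p under 0.05. Sult2a1 and Sult2a2 separate the series fully, as the rule that named them required, while for Cux2 PM5 replicate 1 lies with the AL15 livers.

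Most genes of fatty acid oxidation were lower in PM5. Of 21 tested targets of PPARA, the nuclear receptor that switches on fat burning in fasting, 15 were lower and 0 higher, with a median of -0.64, and 15 were lower with the length trend removed. Cyp4a14, an omega-hydroxylase and the classic PPARA target, had 808, 528 and 590.5 TPM in AL15 and 210.0, 196 and 180.2 TPM in PM5, with -1.69 ± 0.16 (SE), adjusted p = 0.00228. Its neighbour Cyp4a10 stood at -1.41 (adjusted p = 0.00213). Cpt1a, which admits long-chain fatty acids to mitochondria, had 279.8, 311 and 319.8 TPM in AL15 and 138, 139.8 and 148 TPM in PM5, with -1.09 ± 0.07 (SE), adjusted p = 0.00203, and the values of each series lay close together. Acot1, a thioesterase that splits acyl-CoA, stood at -1.91 (adjusted p = 0.00449). With the spread of all 26 libraries 7 of the 21 passed.

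Fatty acid synthesis was not uniformly changed. Of 17 genes tested, 7 were lower and 2 higher, or 4 and 2 with the length trend removed and 3 and 1 with the spread of all 26 libraries. The count of higher genes went from 0 without PM5 replicate 2, and 1 without any single AL15 library, to 4 without PM5 replicate 1. Acacb, which makes the malonyl-CoA that blocks Cpt1a, had 50.2, 35.3 and 44.8 TPM in AL15 and 8.58, 13.05 and 15.7 TPM in PM5, with -1.75 ± 0.23 (SE), adjusted p = 0.00426. Gpam, which starts glycerolipid synthesis, stood at -1.05 (adjusted p = 0.00203), the desaturase Fads2 at -1.17 (adjusted p = 0.00283) and the desaturase Scd1 at -0.93 (adjusted p = 0.00921). Fatty acid synthase itself (Fasn) had 101, 104 and 87.6 TPM in AL15 and 88.6, 209 and 129.9 TPM in PM5, with overlapping groups (adjusted p = 0.267). The 2 higher genes, named after their values were seen, were the transcription factors of this pathway, Srebf1 at 0.89 (adjusted p = 0.0154) and Mlxipl at 0.78 (adjusted p = 0.0492). In cholesterol synthesis 4 of 23 genes were lower, no larger a share than the 20.1% over all genes. It was 2 with the length trend removed or without AL15 replicate 3, and 1 without AL15 replicate 1, AL15 replicate 2 or PM5 replicate 2. Stard4, which carries sterols between membranes, stood at -0.89 (adjusted p = 0.00523). Hmgcs1 was 143, 208 and 87.4 TPM in AL15 and 94.2, 125 and 149 TPM in PM5, with overlap.

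Of 15 genes of gluconeogenesis and fasting, 4 were lower and 2 higher (4 and 1 with the length trend removed, 2 and 0 with the spread of all 26 libraries), and 7 and 8 were lower without PM5 replicate 1 and PM5 replicate 3. Without any single library other than PM5 replicate 1, 1 was higher. Foxo3, a transcription factor held in check by insulin signals, had 39.6, 33.5 and 36.1 TPM in AL15 and 8.86, 10.97 and 13.2 TPM in PM5, with -1.65 ± 0.14 (SE), adjusted p = 0.00203, and the lowest AL15 liver was well above the highest PM5 liver. Pck1, which commits carbon to glucose, had 4770.3, 4412 and 4787 TPM in AL15 and 2048, 2799 and 3666 TPM in PM5, with -0.75 ± 0.20 (SE), adjusted p = 0.0303. That call was lost without any 1 of AL15 replicates 1, 2 and 3 or PM5 replicate 2, with adjusted p between 0.0719 and 0.0955, and with the length trend removed (0.0515). Several of the largest falls were outside these lists: Abhd2, a lipase, stood at -1.82 (adjusted p = 0.0062) and Megf9, a membrane protein, at -1.75 (adjusted p = 0.00605).

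Some genes for clearing foreign compounds and for bile were lower as well. Of 22 targets of the xenobiotic receptors CAR and PXR, 8 were lower and 0 higher, and the same counts held with the length trend removed. Without AL15 replicate 2 or AL15 replicate 3 it was 5, and with the spread of all 26 libraries 1. Cyp3a11, the main PXR-responsive P450 of mouse liver, had 4591, 4245 and 5053 TPM in AL15 and 2087, 1829 and 1953 TPM in PM5, with -1.24 ± 0.09 (SE), adjusted p = 0.00203. Ces2a, a carboxylesterase, stood at -0.91 (adjusted p = 0.00276). In the list of bile acid synthesis and transport 9 of 20 genes were lower and 1, Cyp7b1, was higher (7 and 1 with the length trend removed). Without AL15 replicate 2 or AL15 replicate 3 it was 4 lower, and with the spread of all 26 libraries 1. The canalicular pumps Abcc2, at -1.02 (adjusted p = 0.004), and Abcb4, which delivers phospholipid to bile, at -0.89 (adjusted p = 0.0042), were both lower, and the basolateral pump Abcc3 stood at -0.86 (adjusted p = 0.00328). Cyp7a1, the rate-limiting enzyme of the classic route, ran from 43.2 TPM in PM5 replicate 1 to 290.6 TPM in PM5 replicate 3, so the series overlapped. Of 20 periportal genes 4 were higher and 3 lower (1 and 2 with the length trend removed), and of 20 pericentral genes 0 were higher and 2 lower (0 and 1). Over the fits without 1 library the periportal counts ran from 1 to 4 higher and from 2 to 5 lower, and with the spread of all 26 libraries they were 0 and 0. Pericentral Cyp2e1 (adjusted p = 0.173) and periportal Cyp2f2 (adjusted p = 0.111) did not pass.

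Clock genes differed in part. Of 15 output genes 6 were lower and 0 higher, also with the length trend removed. Of 17 core clock genes 4 were lower, close to the 20.1% over all genes, but 1 with the length trend removed. The core count was 1 or 2 in each fit without 1 library but that without PM5 replicate 1. Without AL15 replicate 1, PM5 replicate 1 or PM5 replicate 3, 1 or 2 output genes were higher in place of 0. With the spread of all 26 libraries 3 output genes and 1 core gene were lower. Wee1, a clock-driven cell cycle kinase, had 14.4, 20.7 and 17.5 TPM in AL15 and 6.21, 7.57 and 8.22 TPM in PM5, with -1.15 ± 0.15 (SE), adjusted p = 0.00384. Gys2, the liver glycogen synthase, stood at -0.75 (adjusted p = 0.0032), the ring-finger gene Lonrf3 at -0.92 (adjusted p = 0.00647) and Nampt, which makes NAD, at -1.12 (adjusted p = 0.00867). Of the core genes Cry2 stood at -0.53 (adjusted p = 0.0089). Cry1, Rora and Nr1d2 lost their calls in 4, 5 and 5 of the 6 fits without 1 library. The genes that swing most over a day did not separate the series. Nr1d1, which encodes REV-ERBα, had 8.40, 23.2 and 10.98 TPM in AL15 and 93.7, 16.4 and 12.04 TPM in PM5, so PM5 replicate 1 was far above the other 5 livers. Dbp, a transcription factor of the day's end, had 84.8, 170.4 and 119.6 TPM in AL15 and 284, 156 and 98.1 TPM in PM5, again with PM5 replicate 1 highest. Arntl and Per1 differed by -0.04 and -0.15, neither past the test.

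**Figure D3:**
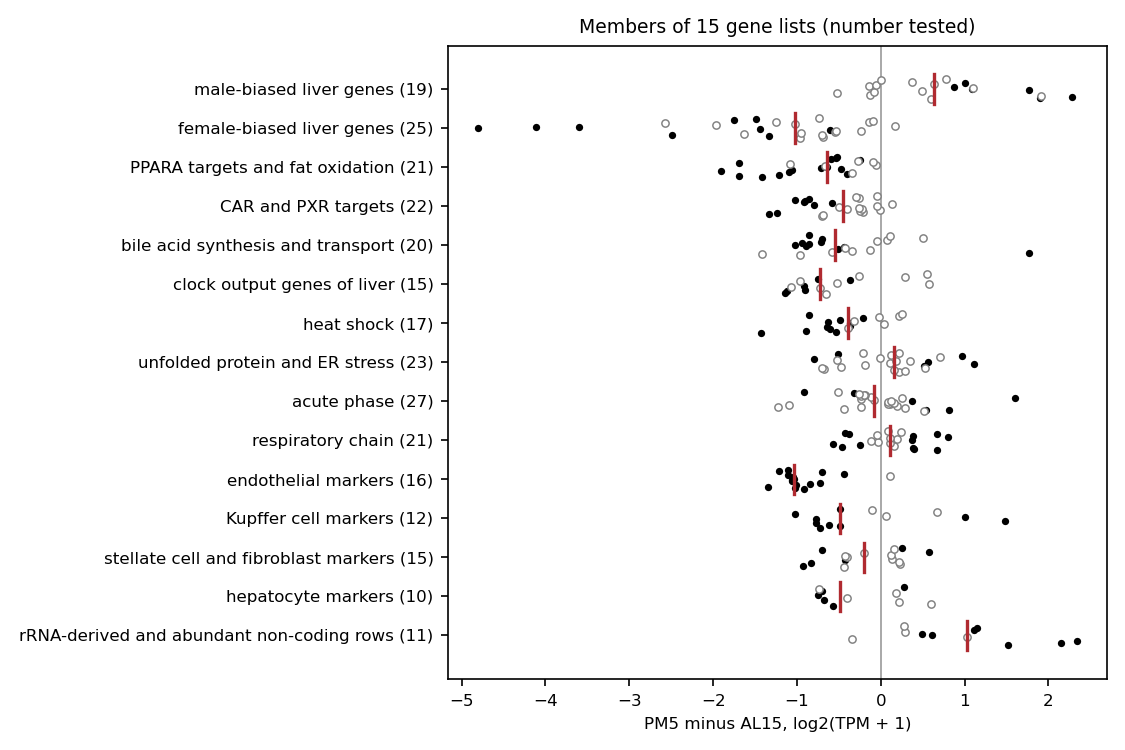
Difference of each tested member of 15 gene lists, PM5 minus AL15 in log2(TPM + 1). Filled points passed an adjusted p of 0.05, open points did not, and the red bar is the list's median, which lies at -1.03 for female-biased genes and 0.64 for male-biased genes.

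Markers of the cells that line the sinusoids were lower in PM5. Of 16 endothelial markers 15 were lower and 0 higher, with a median of -1.03, and 14 were lower with the length trend removed, at a median of -0.83. These transcripts are long, with a median of 3789 bases. Kdr, the main receptor for the growth factor VEGF, had 18.9, 24.2 and 17.3 TPM in AL15 and 7.71, 6.47 and 7.68 TPM in PM5, with -1.34 ± 0.14 (SE), adjusted p = 0.00235. Dnase1l3, a secreted nuclease of sinusoidal endothelium, had 26.3, 31.7 and 23.8 TPM in AL15 and 11.3, 11.5 and 13.4 TPM in PM5, with -1.11 ± 0.12 (SE), adjusted p = 0.00276. The junction protein Cdh5, which stands in the Kupffer cell list too, stood at -1.03 (adjusted p = 0.0025) and the scavenger receptor Stab2 at -1.06 (adjusted p = 0.0029). Plvap, which marks fenestrated and larger vessels, was the single member that did not pass, with 43.3, 41.1 and 41.99 TPM in AL15 and 44.8, 43.2 and 48.5 TPM in PM5 (named after its values were seen). The summed level of the list ran from 360.7 to 453 TPM in AL15 and from 216 to 241 TPM in PM5. The count of 15 also held in each of the 6 fits without 1 library, and 5 passed with the spread of all 26 libraries. In bulk tissue fewer endothelial cells and less RNA per endothelial cell cannot be told apart.

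Kupffer cell markers split. Of 12 tested, 7 were lower (Cdh5 of the endothelial list among them) and 2 higher, with or without the length trend, while 1 was lower and 0 higher with the spread of all 26 libraries. Clec4f, the lectin that defines mouse Kupffer cells, had 102, 109.8 and 111 TPM in AL15 and 67.9, 58.8 and 67.1 TPM in PM5, with -0.73 ± 0.08 (SE), adjusted p = 0.00276. Vsig4, a complement receptor, had 38.3, 39.99 and 41.8 TPM in AL15 and 25.6, 25.8 and 25.9 TPM in PM5, with -0.62 ± 0.06 (SE), adjusted p = 0.00228, and Cd5l, a secreted scavenger protein, stood at -0.77 (adjusted p = 0.0025). The 2 higher members were named after their values were seen. Marco, a scavenger receptor for bacteria and particles, had 3.61, 5.84 and 5.27 TPM in AL15 and 14.7, 18.99 and 12.7 TPM in PM5, 3.15 times higher in PM5, with 1.48 ± 0.19 (SE), adjusted p = 0.00401. C6, a complement component that hepatocytes also make and that stands in the male-biased list too, was 1.01 (adjusted p = 0.015), and lost its call without AL15 replicate 3 (adjusted p = 0.0555) or PM5 replicate 2 (0.0521). Cd163, the receptor that takes up haemoglobin, was among the largest falls, with 22.03, 19.5 and 20.01 TPM in AL15 and 3.07, 6.15 and 6.94 TPM in PM5 and -1.81 ± 0.25 (SE), adjusted p = 0.00452. Among 10 general macrophage markers 3 were lower, 6 with the length trend removed or without PM5 replicate 1, and 0 with the spread of all 26 libraries. Csf1r, the receptor for the macrophage growth factor, stood at -0.97 (adjusted p = 0.00227) and the mannose receptor Mrc1 at -1.12 (adjusted p = 0.00228), while C1qb lost its call in 5 of the 6 fits without 1 library. Ptprc, which all white blood cells carry, had 3.75, 4.31 and 3.68 TPM in AL15 and 3.88, 3.58 and 2.73 TPM in PM5, with overlap (adjusted p = 0.331). Of 10 hepatocyte markers 4 were lower and 1 higher (0 without AL15 replicate 2, AL15 replicate 3, PM5 replicate 1 or PM5 replicate 3, and 2 without AL15 replicate 1), with Cps1 of the urea cycle at -0.67 (adjusted p = 0.00844) and the regulator Hnf4a at -0.70 (adjusted p = 0.00618). With the length trend removed 3 were lower and 0 higher, and with the spread of all 26 libraries 0 passed in either direction. Alb itself stood at -0.56 (adjusted p = 0.00627). It was the top gene of every library, so quantile normalization sets it to 1 value and cannot show a difference.

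**Figure D4:**
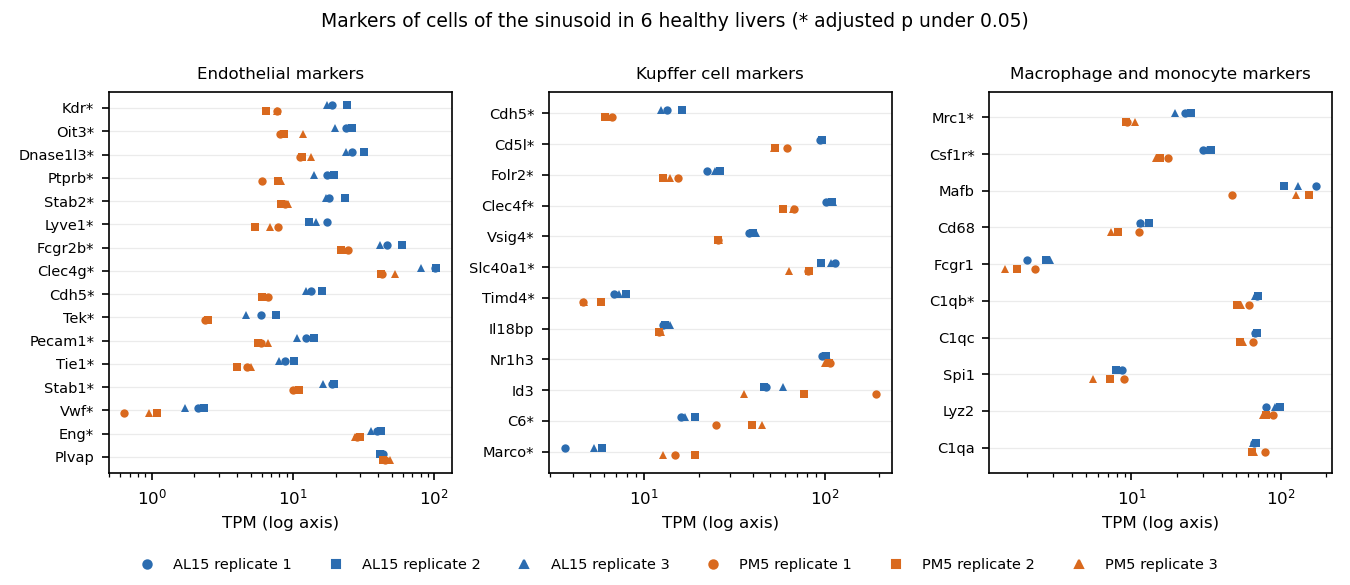
TPM (log axis) of endothelial, Kupffer cell and macrophage markers in the 6 healthy livers, AL15 in blue and PM5 in orange, 1 symbol per replicate, asterisks at adjusted p under 0.05. All endothelial markers but Plvap lie lower in PM5, and Marco lies higher.

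Most heat shock genes were lower in PM5. These chaperones refold proteins and are switched on together by the factor HSF1, which binds repeats of GAA and TTC. Of 17 tested, 11 were lower and 0 higher, with a median of -0.39, and 10 were lower with the length trend removed. It was 7 without AL15 replicate 2 or AL15 replicate 3, when 1425 and 1212 of all genes were lower in place of 2455. Without PM5 replicate 3, 1 was higher, and with the spread of all 26 libraries 3 were lower. Hsph1, an HSP110 chaperone, had 69.3, 70.5 and 73.7 TPM in AL15 and 30.9, 41.5 and 41.99 TPM in PM5, with -0.90 ± 0.12 (SE), adjusted p = 0.00429. Dnajb1, which passes clients to HSP70, had 33.5, 35.5 and 36.3 TPM in AL15 and 21.3, 23.7 and 22.95 TPM in PM5, with -0.61 ± 0.07 (SE), adjusted p = 0.0029, Hspa4l stood at -0.86 (adjusted p = 0.00285) and the constitutive Hspa8 at -0.54 (adjusted p = 0.00513). Because these genes moved together, their promoter windows (250 bases before to 50 after the start site, RefSeq, GRCm38.p6) were searched on both strands for 3 units, GAA, any 2 bases, TTC, any 2 bases, GAA. Of 14 genes with a window 4 held a match in at least 1 of their windows. Counted by window and not by gene, 0.603% of all 32851 windows held a match. Hsph1 has 2 overlapping windows that hold the same site. Of the 4 genes with a match 3 were lower in PM5, and of the 9 tested genes with a window but no match 5 were lower. The windows of Hsph1 (chr5:149636287-149636586, minus strand) and of Chordc1, an HSP90 partner (chr9:18292017-18292316, plus strand), are shown with the matches in capitals. Chordc1 stood at -0.49 (adjusted p = 0.0143), lost its call without AL15 replicate 3 (adjusted p = 0.0592), and was named after its values were seen because its window holds 3 overlapping matches.
Hsph1: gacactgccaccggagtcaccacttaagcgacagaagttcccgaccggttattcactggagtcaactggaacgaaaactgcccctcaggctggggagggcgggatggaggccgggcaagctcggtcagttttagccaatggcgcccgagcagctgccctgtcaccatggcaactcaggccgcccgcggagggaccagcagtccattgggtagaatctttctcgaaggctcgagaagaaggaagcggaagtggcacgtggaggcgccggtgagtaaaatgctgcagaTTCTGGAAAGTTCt
Chordc1: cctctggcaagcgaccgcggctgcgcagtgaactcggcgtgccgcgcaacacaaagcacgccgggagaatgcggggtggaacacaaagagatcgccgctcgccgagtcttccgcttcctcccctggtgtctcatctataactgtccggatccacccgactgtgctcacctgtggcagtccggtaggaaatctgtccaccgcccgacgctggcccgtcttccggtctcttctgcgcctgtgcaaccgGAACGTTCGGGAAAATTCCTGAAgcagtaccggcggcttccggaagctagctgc
The match of Hsph1 starts at base 287 of the window shown and the first of Chordc1 at base 247. A match describes letters in the window and says nothing of whether the factor was bound there.

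The list of the unfolded protein response and stress of the endoplasmic reticulum, where secreted proteins fold, went both ways. Of 23 genes tested 4 were higher and 2 lower, or 4 and 1 with the length trend removed and 2 and 1 with the spread of all 26 libraries. Without AL15 replicate 1 it was 7 higher and 1 lower, without AL15 replicate 2 it was 4 lower, and without AL15 replicate 3 or PM5 replicate 2 it was 1 lower. Calr, calreticulin, had 597, 477 and 464 TPM in AL15 and 1088, 972 and 952 TPM in PM5, with 0.97 ± 0.11 (SE), adjusted p = 0.00311. Pdia3, its disulphide isomerase partner, stood at 0.56 (adjusted p = 0.0073) and Sdf2l1 at 1.11 (adjusted p = 0.0128). Sel1l, part of the machinery that discards misfolded proteins, stood at -0.51 (adjusted p = 0.00921), with adjusted p = 0.118 once the length trend was removed. In the list of hypoxia and glycolysis genes 7 of 17 were lower and 0 higher. It was 5 lower and 1 higher with the length trend removed, 4 lower and 2 higher with voom, 3 lower with the spread of all 26 libraries, and 3 or 4 lower in each fit without 1 library but that without PM5 replicate 1. Among them were the glycolytic enzyme Pgk1 at -0.77 (adjusted p = 0.0049) and Pdk1, which holds pyruvate back from mitochondria, at -0.85 (adjusted p = 0.011).

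Hepcidin rose. Hamp, the hormone by which liver limits iron entry into blood, had 2396, 1418 and 2522 TPM in AL15 and 7662, 5472 and 5663 TPM in PM5, 2.97 times higher in PM5 on the means, with 1.597 ± 0.25 (SE), adjusted p = 0.00628. Its transcript is short, at 394 bases, and with the length trend removed the difference was 1.12 (adjusted p = 0.0249). Hamp is induced by BMP6 through SMAD factors and by interleukin 6 through STAT3. Bmp6 itself was 3.72, 3.70 and 2.75 TPM in AL15 and 2.18, 1.89 and 2.05 TPM in PM5, lower in PM5 at -0.52 (adjusted p = 0.0167), a call lost in 3 of the 6 fits without 1 library. The window of Hamp (chr7:30943980-30944279, minus strand) is shown with the STAT-type motif TTCNNNGAA in capitals. The motif reads the same on both strands, and 8.3% of all windows hold it.
Hamp: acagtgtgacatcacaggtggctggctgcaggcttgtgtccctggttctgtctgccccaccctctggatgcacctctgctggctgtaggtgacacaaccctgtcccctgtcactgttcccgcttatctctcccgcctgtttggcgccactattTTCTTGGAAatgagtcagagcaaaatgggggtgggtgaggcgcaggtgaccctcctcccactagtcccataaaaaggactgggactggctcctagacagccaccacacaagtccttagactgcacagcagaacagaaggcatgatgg
The match starts at base 154 of the window, ahead of the start site. No SMAD site was sought, and a match says nothing of whether a factor was bound there. Which route, if any, lay behind the Hamp difference was not tested. The acute phase list as a whole was mixed, with 4 of 27 genes higher and 2 lower, or 1 and 3 with the length trend removed and 0 and 0 with the spread of all 26 libraries. Without PM5 replicate 1 it was 6 lower, and without any 1 of the AL15 libraries or PM5 replicate 2 it was 2 higher and 0 lower. Saa1, serum amyloid A, had 132, 76.1 and 108 TPM in AL15 and 78.2, 145 and 284 TPM in PM5, with overlap. Saa2 stood at 0.54 (adjusted p = 0.0095), and with the length trend removed at 0.15 (adjusted p = 0.3). Saa3 lost its call in 4 of the 6 fits without 1 library. Metallothionein Mt1 had 1332, 682 and 949 TPM in AL15 and 1546, 1658 and 1565 TPM in PM5, and its adjusted p of 0.0491 was lost in 5 of those fits. The zinc carrier Slc39a4 stood at -1.03 (adjusted p = 0.00216).

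The other large rises came from varied genes. Gdf15, a stress-induced cytokine, had 4.37, 6.47 and 4.52 TPM in AL15 and 36.96, 53.4 and 14.5 TPM in PM5, 6.83 times higher on the means, with 2.39 ± 0.45 (SE), adjusted p = 0.0104, and PM5 replicate 3 was the lowest of its series. Tmsb10, an actin-binding peptide, had 3.49, 4.13 and 3.11 TPM in AL15 and 28.2, 19.6 and 17.3 TPM in PM5, with 2.29 ± 0.18 (SE), adjusted p = 0.00203. Cxcl1, a chemokine for neutrophils, had 1.53, 2.14 and 2.40 TPM in AL15 and 12.1, 4.75 and 10.1 TPM in PM5, with 1.65 ± 0.31 (SE), adjusted p = 0.0108. Mmd2 stood at 2.12 (adjusted p = 0.0108), Tmie at 1.81 (adjusted p = 0.0028) and Tmem200b at 1.77 (adjusted p = 0.0122). Of 23 type I interferon genes 2 were higher and 0 lower, no larger a share than the 14.4% and 20.1% of all genes tested. The 2 were the ubiquitin-like Isg15 at 1.13 (adjusted p = 0.00962) and Oasl1 at 0.72 (adjusted p = 0.00645). The count was 3 higher with the length trend removed and 0 with the spread of all 26 libraries. With voom it was 7, when 3041 of all genes were higher. Without PM5 replicate 3 it was 4 higher, and without PM5 replicate 1 it was 4 lower. A pair of imprinted non-coding RNAs made from 1 locus on chromosome 12 rose together. Meg3 had 0.556, 1.24 and 1.75 TPM in AL15 and 4.31, 6.91 and 5.85 TPM in PM5, with 1.64 ± 0.24 (SE), adjusted p = 0.00493, and its neighbour Rian had 1.02, 2.04 and 2.70 TPM in AL15 and 6.66, 10.3 and 10.9 TPM in PM5, with 1.84 ± 0.27 (SE), adjusted p = 0.00504. The next RNA of that locus, Mirg, named after its values were seen, stood at 1.07 (adjusted p = 0.00276). Meg3 is long, at 12956 bases, so its rise ran against the length trend.

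Genes of NOTCH signalling, the pathway that the study activates in its tumours, were low in both series. Of 14 tested 4 were lower in PM5 and 0 higher, against 20.1% lower and 14.4% higher over all genes. The lower count was 3 with the length trend removed and 2 with the spread of all 26 libraries. Their median length was 3798.5 bases. In the length groups with medians of 3451 and 4158.5 bases, 297 of 1221 and 363 of 1220 genes were lower. Notch1, a receptor, had 7.37, 8.78 and 8.73 TPM in AL15 and 3.41, 3.19 and 4.10 TPM in PM5, with -1.03 ± 0.11 (SE), adjusted p = 0.00276. Notch2 stood at -0.86 (adjusted p = 0.00765) and Lfng, which modifies the receptors, at -0.79 (adjusted p = 0.00276), while Notch4 lost its call in 4 of the 6 fits without 1 library. NOTCH receptors are also made by endothelium, whose markers moved with them, and the part of the cell mixture in this difference was not tested. Myc had 6.72, 2.25 and 4.60 TPM in AL15 and 7.71, 3.08 and 5.02 TPM in PM5, with overlap (adjusted p = 0.714). Nnt, a mitochondrial gene that differs between C57BL/6 substrains, had 75.4, 83.4 and 87.1 TPM in AL15 and 66.01, 52.6 and 55.8 TPM in PM5. Its -0.49 (adjusted p = 0.0132) was lost without AL15 replicate 3 (adjusted p = 0.0564) and with the length trend removed (0.0514).

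Ribosomal RNA and some abundant non-coding RNAs were higher in PM5. RN45S, the precursor of ribosomal RNA, had 3272, 2085 and 1756 TPM in AL15 and 7319.9, 6212 and 6182 TPM in PM5, with 1.52 ± 0.23 (SE), adjusted p = 0.00551. Mir6236 had 710.2, 575 and 343 TPM in AL15 and 2528, 2256 and 2135 TPM in PM5, with 2.15 ± 0.26 (SE), adjusted p = 0.00366, and Mir703 had 14.01, 14.5 and 11.7 TPM in AL15 and 91.99, 65.3 and 61.5 TPM in PM5, with 2.34 ± 0.17 (SE), adjusted p = 0.00203. The libraries were made for long RNA, so these rows count fragments that cover the hairpin and do not measure mature microRNA. The mature sequences (RefSeq, GRCm38.p6) are given to identify the 2 rows, with the seed, bases 2 to 8, in capitals. They lie at chr9:110281353-110281371 (plus strand) and chr5:98475616-98475636 (minus strand), and their seeds differ.
miR-6236: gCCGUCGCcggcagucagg
miR-703: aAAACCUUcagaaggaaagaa
Malat1, a nuclear non-coding RNA, had 190.2, 207 and 213 TPM in AL15 and 404, 493 and 425 TPM in PM5, with 1.11 ± 0.09 (SE), adjusted p = 0.00203. In the list of ribosomal and abundant non-coding RNAs 7 of 11 were higher and 0 lower, 4 without PM5 replicate 2, 3 with the spread of all 26 libraries and 3 with the length trend removed, which could not be fitted for RN45S and Malat1. Genes for cytosolic ribosomal proteins are short, and 63 of 83 were higher and 0 lower, against 20 and 3 with the length trend removed, and the median went from 0.42 to 0.08. They held 3.22% ± 0.138 of the TPM in AL15 and 4.3% ± 0.283 in PM5 (SD, n = 3), without overlap, and an exact two-sided permutation test gave p = 0.1, the smallest that 3 against 3 allows. The respiratory chain had 7 of 21 subunits higher and 5 lower, or 3 and 4 with the length trend removed, 12 and 2 with voom and 4 and 3 with the spread of all 26 libraries. Without AL15 replicate 2 or AL15 replicate 3 it was 3 lower. Ndufa1, a small subunit of complex I with a transcript of 493 bases, stood at 0.67 (adjusted p = 0.0032), and at 0.23 (adjusted p = 0.0277) with the length trend removed.

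The choice of healthy series changed some tumour comparisons. Against AL15, 85.9% of 15630 genes differed in the 12 tumours, with 10608 higher and 2822 lower. Against PM5 it was 85.7%, with 10709 higher and 2686 lower. Both comparisons share the 12 tumours, and under median ratio scaling the splits became 6502 to 6135 and 6454 to 6099, and after quantile normalization 6636 to 5541 and 6579 to 5544. Notch1 and Hamp, which had large steps, kept their direction against either series. Notch1 had 469 ± 152 TPM in luc and 576 ± 167 TPM in lucOS tumours (SD, n = 6). It was higher by 5.76 ± 0.225 (SE) on the log2 scale against AL15 and by 6.78 ± 0.225 against PM5. These tumours are labelled nicd, and whether the Notch1 row holds reads of an introduced sequence was not tested. Hamp stood at -7.42 ± 0.96 against AL15 and at -9.02 ± 0.96 against PM5. Marco was at -0.75 ± 0.50 (adjusted p = 0.167) against AL15 and at -2.23 ± 0.50 (adjusted p = 0.000486) against PM5. Foxo3 passed in both directions, at -0.85 ± 0.15 (adjusted p = 3.66e-05) against AL15 and 0.80 ± 0.15 (adjusted p = 6.48e-05) against PM5. Kdr did likewise, at -0.82 ± 0.22 (adjusted p = 0.00221) and 0.52 ± 0.22 (adjusted p = 0.0351). After median ratio scaling the second value turned negative for both, -0.38 for Foxo3 and -0.62 for Kdr, while the first stayed negative at -2.05 and -1.99. These genes were named after their values were seen.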

How the data were processed

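Bulk RNA of 26 liver and tumour samples was given by the authors as 1 table of TPM values, which the analysis took as deposited. The submitters' processing notes name TopHat2, featureCounts, DESeq2 and mm10, with no versions or roles. The other 30 samples (15 T cell receptor and 15 droplet libraries) were not used here. Of 24063 rows, 27 named by dates and 2 sharing a name were left out. Groups were taken from the title codes.

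Genes with at least 1 TPM in at least 3 of 6 libraries were tested with limma 3.58.1 (R 4.3.3) on log2(TPM + 1), with trend and robust spread, with p-values adjusted (Benjamini-Hochberg) across the whole table and a threshold of 0.05. Every adjusted p in the text comes from limma. SE is its standard error, and each series has n = 3. Class shares were compared by exact permutation. In low genes the TPM are whole multiples of 1 read (tolerance 0.001 read), which gave lengths and reads for 12204 genes. These served for 2 alternatives chosen after seeing the data, a loess trend on length (span 0.4) taken off each library and limma voom. On simulated data with 12216 genes, 85% of 100 genes changed by 1 log2 unit and 50% of 100 changed by 0.5 were recovered, with 5 unchanged genes called. The simulation drew independent noise for each gene, changed few genes, none of them low, and held no length trend. Its rates need not hold for these libraries.

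The members and gene lists were chosen with earlier results of these data known. Named genes are the 12 largest rises and 12 largest falls (at least 5 TPM, no overlap, no predicted or small RNA genes), up to 4 members by p of each list with 2 or more calls, and a fixed set such as Alb, Xist and Myc. The text names those of the lists it describes. Genes outside this rule are marked as named after their values were seen. Some genes that the rule gives are not reported here.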

Additional observations from a re-analysis of the deposited data

How the results depend on the processing

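The count of 4210 genes stayed within 1.5 times under other pseudocounts, filters, scalings and spread settings, with these exceptions. Array weights gave 6633 genes (2767 higher, 3866 lower), the spread of all 26 libraries gave 1788 (752 higher, 1036 lower) and limma voom on whole reads gave 3041 higher. Leaving out 1 library gave 2121 to 4068 genes, 909 to 1724 higher and 1212 to 2471 lower. The cause was not tested. Of 96 called genes named, 59 lost the call under at least 1 setting, 51 of these with the spread of all 26 libraries, 10 with the length trend removed and 6 with voom, and 81 kept it in every fit without 1 library. Srebf1 and Mlxipl are not in this tally, and neither was called higher without PM5 replicate 2. The sign turned for 6 named genes. Arntl became 0.015 with the length trend removed and 0.063 with voom, Per1 0.024, Ptprc 0.051 and Rora 0.057 with the length trend removed. With array weights Hmgcs1 became 0.203 and Myc -0.16. Without 1 library Arntl ran from -0.111 to 0.015, Hmgcs1 from -0.507 to 0.114, Myc from -0.137 to 0.488 and Per1 from -0.252 to 0.038. No paired analysis was possible because the titles carry no replicate numbers. With 3 libraries a series, a single share cannot reach an exact p under 0.1, and the sparse rows near 1 TPM are the least precise.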

Other observations

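Some genes set a single library apart from its own series. A gene was counted where 1 library lay at least 4 times above or below both others of its series on TPM + 1, while those 2 lay within 1.5 times of each other. PM5 replicate 1 had 24 such genes, 6 above and 18 below, against 1, 1 and 2 in AL15 replicates 1 to 3, 2 in PM5 replicate 2 and 6 in PM5 replicate 3. The genes named here were chosen after their values were seen. Thrsp, a gene of fat synthesis induced by feeding and thyroid hormone, had 2085, 1446 and 1739 TPM in AL15 and 454, 2836 and 2592 TPM in PM5. Lpin1, a phosphatidate phosphatase, had 495, 263 and 404 TPM in AL15 and 30.8, 199 and 295 TPM in PM5, and Tsku, a secreted hepatocyte protein, had 162, 166 and 192 TPM in AL15 and 17.5, 193 and 157 TPM in PM5. Mup17 had 25.5, 82.97 and 29.2 TPM in AL15 and 18.8, 274 and 410.2 TPM in PM5, though reads of this family can be split among its copies. In PM5 replicate 3 it was Igfbp1, a binding protein for insulin-like growth factors that rises in fasting, with 148, 55.7 and 57.6 TPM in AL15 and 8.88, 9.32 and 143 TPM in PM5.

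The counts of small RNA rows in these long-RNA libraries changed with the length trend. Of 374 microRNA rows 31 were higher in PM5 and 57 lower, at a median of -0.06, and 6 were higher and 114 lower with the length trend removed, at a median of -0.45. Of 92 small nucleolar RNA rows 13 were higher and 4 lower, and 3 and 9 with the length trend removed. Their median lengths were 73.5 and 78 bases.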
